A study of Mus musculus with 27 samples.

Results

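The livers of 7 mice fed a medium-fat diet for life (MF) were compared with those of 5 mice kept on calorie restriction for life (CR), which together make 12 of the 27 mice of the series. The members were chosen by their diet label alone, and no measured value entered the choice. All were male C57BL/6J mice that started their diet at 9 weeks of age and were killed at 28 months. MF mice ate AIN-93W-MF, with 25% of energy from fat, ad libitum. CR mice received portions of AIN-93W-CR with 30% less energy than the control mice took. The other 15 mice were 8 controls (C) and 7 mice moved from CR to the MF diet at 24 months, and they entered the fit but not the comparison. Every mouse was fasted for 4 hours, received carboxymethyl cellulose without drug by gavage and was fasted for 6 further hours. CR mice were given part of their daily portion shortly before the first fast, so the last meal and the diet cannot be told apart. The mice were killed over several weeks and which week each mouse belonged to is unknown here, and its bearing on the values was not tested.

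Calorie restriction lowers the supply of carbohydrate and fat to the liver between meals, and the fasting liver then makes glucose and burns fatty acids. The liver also folds and secretes most plasma proteins in its endoplasmic reticulum (ER), and builds cholesterol, bile acids and lipoproteins. In old, well-fed mice, fat droplets commonly accumulate inside the hepatocytes, and immune cells and connective tissue between them. A piece of liver holds all of these cells, and in such bulk tissue fewer cells of a type and less RNA per cell cannot be told apart.

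The measurements came from Affymetrix Mouse Gene 1.1 ST arrays, 1 per mouse, and levels are log2 intensities, so that a difference of 1 is a 2-fold change. Over all 35556 transcript clusters, medians of the CR and MF arrays lay between 5.41 and 5.48, and correlations between arrays between 0.975 and 0.991. A gene is called higher or lower when its adjusted p from limma, over the 13993 genes tested, was under 0.05. It is called held when this was also so with each of the 12 mice left out in turn, which says nothing of a block for the well row. Codes in the array names were read as plate and well row. On plate G150 the 3 CR mice lay in row F and the 5 MF mice in row G, while plates G151 and G152 each held 1 CR and 1 MF mouse, all in row G. CR values are listed in the order of mice B4_1, B4_5, B4_7, B4_13 and B4_3, of which the last 2 are those on plates G151 and G152.

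In MF livers 392 genes were higher (2.8% of those tested) and 366 were lower (2.62%) than in CR livers. Of these, 103 higher genes (0.736%) and 96 lower genes (0.686%) were held with every mouse left out. Most differences were modest: the median size over called genes was 0.49 on the log2 scale, or 1.405-fold, and the smallest was 0.16. A change of more than 1 was seen in 57 higher and 31 lower genes, and of more than 2 in 6 and 5. All 7 MF mice lay above all 5 CR mice for 320 genes (2.29%) and below all of them for 210 genes (1.5%). The lower genes were the more strongly expressed, with a median level of 8.23 against 6.95 for the higher genes and 6.92 over all genes tested. Between levels of 6 and 7, 88 genes were higher and 37 lower, and between 9 and 10, 34 were higher and 68 lower. The median difference over all genes tested was -0.00683.

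The direction of the called genes was the same on each plate for nearly all of them. Of the 392 higher genes, 97.7% were also higher on all 3 plates, and of the 366 lower genes 97.3% were lower on all 3. On plate G151, where both mice lay in 1 well row, 99.2% of higher and 98.1% of lower genes kept their direction, and on plate G152 these shares were 98.5% and 99.2%. These mice are part of the data that made the calls. Over all genes tested, 49.7% and 49.3% were higher in MF on these plates. With the well row as a block 42 genes were higher and 96 lower, and within plate G150 alone 39 and 28. Row and diet differ together on that plate, and the part of the row was not tested further. All MF mice lay in row G, and CR was the only diet group in more than 1 row. The block for the well row therefore sets the MF mice against the CR mice of row G alone, B4_13 and B4_3. A call kept or lost under this block rests on those CR mice. Of the called genes named here 37 also passed with the well row as a block. The 12 higher ones were Actg1, Anxa2, Ccng1, Cd36, Gas6, Man2b2, Rcan2, Stap1, Tceal8, Tceal9, Themis and Wfdc2. The 25 lower ones were Adgrf1, Bud13, Cabyr, Coq10b, Cox5a, Derl3, Gpx6, Hsd3b5, Igfbp2, Irs2, Klf15, Lama3, Lepr, Lrpprc, Mrpl38, Ppp1r3g, Serp1, Sftpa1, Slc2a8, Slc43a1, Spcs3, Susd4, Them4, Ttc39c and Zpr1. The calls of all other genes named here, held or not, ended under this block. Leaving out 1 mouse moved the number of higher genes between 131 (without the CR mouse B4_3) and 605 (without the MF mouse C4_13), and that of lower genes between 126 and 569 (the same mice). Without the CR mice B4_1 and B4_13 the numbers were 157 higher and 178 lower, and 190 and 167. Under median centring each array was set to a common median over its 18820 genes, not over all clusters as in the medians given above. This moved the MF minus CR difference by -0.125, and 260 genes were then higher and 1554 lower. A small difference in either direction is thus relative to the scaling.

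**Figure D1:**
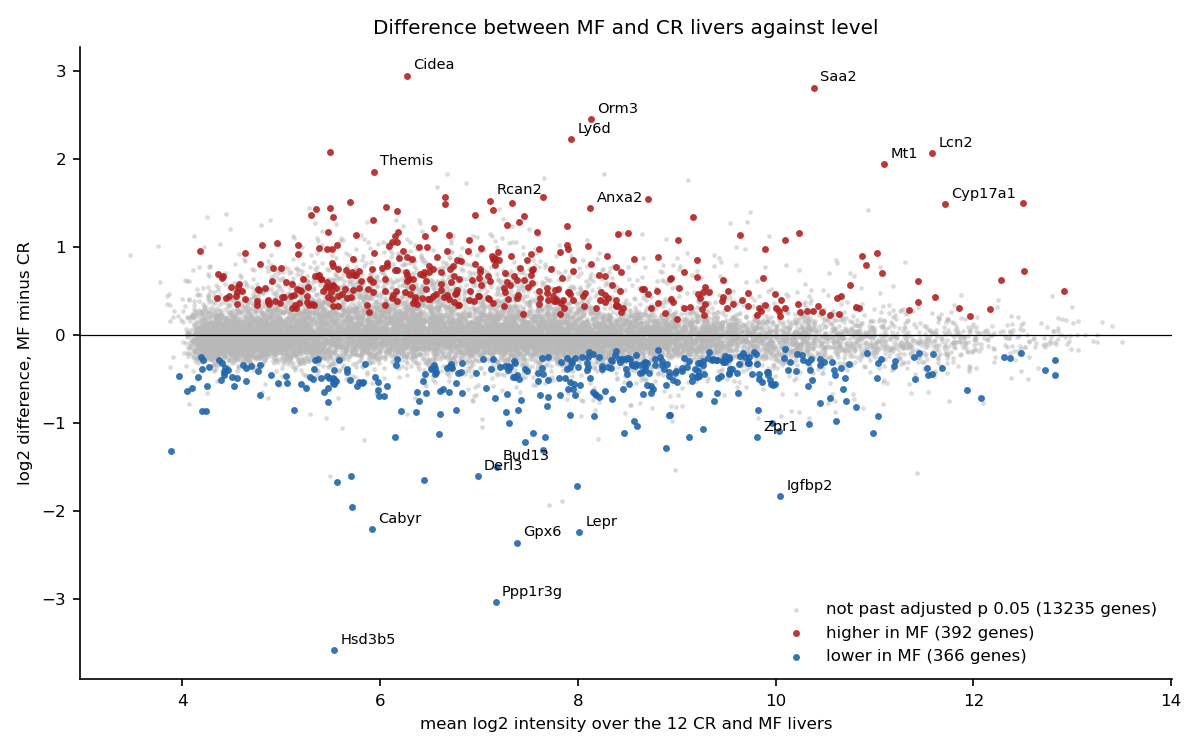
Log2 difference of MF minus CR (vertical axis) against the mean log2 intensity over the 12 livers (horizontal axis) for the 13993 genes tested, with the 392 higher genes in red, the 366 lower genes in blue and all others in grey. The blue points spread further to the right than the red ones, with a median level of 8.23 against 6.95, and Ppp1r3g and Hsd3b5 lie lowest among the named genes.

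Sequences are shown first for the ER genes and miRNA loci described further on. The ER stress element, bound by the stress factor ATF6 together with NF-Y, sits in promoters of many ER chaperones. It was searched as its consensus letters on both strands, without mismatch, in windows from 250 bases before to 50 after each start (RefSeq, GRCm38.p6). It was found in 17 of the 11058 tested genes with a promoter in the table (0.154%), in 4 of 295 lower genes (1.36%) and in 1 of 301 higher genes (0.332%, Acnat2). The other 12 were not called, further ER genes among them, with differences from -0.62 to 0.34. All 4 lower genes, Derl3, Dnajc3, Ero1b and Pdia6, make proteins of the ER. The 250 bases before their starts are given with the outer parts of the element in capitals (CCAAT and CCACG, or ATTGG and CGTGG on the other strand), followed by Hspa5 and Hsp90b1, ER chaperones that hold it and were not called. They lie at chr10:75893148-75893397 (+, Derl3), chr14:118937682-118937931 (+, Dnajc3), chr13:12565633-12565882 (+, Ero1b), chr12:17266339-17266588 (+, Pdia6), chr2:34771840-34772089 (+, Hspa5) and chr10:86705445-86705694 (-, Hsp90b1).
Derl3: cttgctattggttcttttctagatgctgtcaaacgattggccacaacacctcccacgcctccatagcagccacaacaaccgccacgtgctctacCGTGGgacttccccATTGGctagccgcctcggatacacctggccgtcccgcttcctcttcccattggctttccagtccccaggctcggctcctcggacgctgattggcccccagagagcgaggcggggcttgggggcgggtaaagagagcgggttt
Dnajc3: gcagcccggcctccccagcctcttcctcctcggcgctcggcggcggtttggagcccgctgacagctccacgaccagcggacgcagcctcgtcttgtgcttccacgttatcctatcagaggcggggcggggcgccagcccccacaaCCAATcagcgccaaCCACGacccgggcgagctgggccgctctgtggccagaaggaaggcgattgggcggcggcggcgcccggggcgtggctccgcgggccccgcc
Ero1b: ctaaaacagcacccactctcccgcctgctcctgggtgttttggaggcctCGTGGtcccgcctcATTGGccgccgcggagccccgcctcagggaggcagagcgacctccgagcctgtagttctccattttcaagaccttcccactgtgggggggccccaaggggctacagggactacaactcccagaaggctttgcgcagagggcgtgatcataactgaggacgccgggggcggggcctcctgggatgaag
Pdia6: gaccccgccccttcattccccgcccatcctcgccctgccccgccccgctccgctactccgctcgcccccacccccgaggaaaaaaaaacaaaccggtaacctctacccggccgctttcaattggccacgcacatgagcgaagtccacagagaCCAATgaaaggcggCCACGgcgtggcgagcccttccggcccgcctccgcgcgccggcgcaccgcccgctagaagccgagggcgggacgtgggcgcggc
Hspa5: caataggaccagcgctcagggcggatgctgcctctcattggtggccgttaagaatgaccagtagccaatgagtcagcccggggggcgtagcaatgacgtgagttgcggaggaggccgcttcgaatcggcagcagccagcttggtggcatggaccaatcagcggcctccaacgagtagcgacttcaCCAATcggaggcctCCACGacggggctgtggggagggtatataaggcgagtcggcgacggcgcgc
Hsp90b1: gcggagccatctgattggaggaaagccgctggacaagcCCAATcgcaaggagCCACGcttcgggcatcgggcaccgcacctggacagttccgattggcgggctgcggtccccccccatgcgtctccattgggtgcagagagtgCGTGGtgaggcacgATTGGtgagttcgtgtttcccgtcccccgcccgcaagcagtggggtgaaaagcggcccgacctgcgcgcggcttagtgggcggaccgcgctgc
The loci of the miR-23b and miR-181b precursors were the only miRNA genes called among 133 tested, and 1 mature arm of each from the RefSeq table is given with the seed (bases 2 to 8) in capitals, with 1 arm each of the neighbouring loci for miR-27b and miR-24-1. They lie at chr13:63300492-63300512 (+, miR-23b-5p), chr13:63300760-63300780 (+, miR-27b-3p), chr13:63301251-63301272 (+, miR-24-3p) and chr2:38853845-38853868 (+, miR-181b-5p).
miR-23b-5p: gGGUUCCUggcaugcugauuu
miR-27b-3p: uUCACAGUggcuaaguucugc
miR-24-3p: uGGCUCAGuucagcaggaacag
miR-181b-5p: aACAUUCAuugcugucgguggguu
A match of letters is a description, not a site in use. For comparison, TGACGTCA was in 2.66% of higher, 3.05% of lower and 3.21% of all tested genes, CACGTG in 12.6%, 10.8% and 10.9%, and GCCNNNGGC in 27.9%, 28.1% and 27.5%.

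Ppp1r3g, Lepr and Igfbp2 were among the largest falls in MF livers. Ppp1r3g brings protein phosphatase 1 to glycogen and so favours glycogen storage. Its level was 8.26, 9.30, 9.03, 8.66 and 9.47 in the CR livers, and lay between 4.79 and 6.41 (median 6.32) in the MF livers. The groups were more than 1 log2 unit apart at their nearest mice, and the gene was 8.22-fold lower in MF (log2 difference -3.04, standard error 0.36, adjusted p = 6.89e-05 from limma, 0.00211 with the well row as a block). Lepr, the leptin receptor, was at 8.66, 8.34, 10.27, 9.44 and 9.91 in CR and between 6.65 and 7.73 (median 6.99) in MF. It was 4.74-fold lower with no overlap (standard error 0.32, adjusted p = 0.000542 from limma, 0.00327 with the well row as a block). Igfbp2, a binding protein for insulin-like growth factors that rises in fasting, was at 11.35, 10.72, 10.96, 11.13 and 11.43 in CR and between 8.35 and 10.11 (median 9.55) in MF. It was 3.57-fold lower with no overlap (standard error 0.27, adjusted p = 0.000685). Irs2, the insulin receptor substrate induced by fasting, was 1.75-fold lower (log2 standard error 0.18, adjusted p = 0.0131), which no longer passed once the CR mouse B4_3 was left out (adjusted p = 0.0558).

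Several regulators of energy use fell as well. Ppargc1a, the coactivator that drives mitochondrial and gluconeogenic genes, was at 9.17, 8.76, 9.85, 8.80 and 9.47 in CR and between 7.65 and 8.47 (median 8.22) in MF. The groups did not overlap (log2 difference -1.04, standard error 0.18, adjusted p = 0.00237 from limma), and under the well row block its adjusted p was 0.0593. Its relative Ppargc1b fell by 0.65 (standard error 0.14, adjusted p = 0.00875), with the highest MF mouse at 6.69 and the lowest CR mouse at 6.67. Klf15, a fasting factor for amino acid breakdown, was at 9.78, 9.54, 9.96, 9.66 and 10.03 in CR and between 8.82 and 9.40 (median 9.25) in MF. It fell by 0.66 with no overlap (standard error 0.11, adjusted p = 0.00189). Sirt3, the mitochondrial deacetylase, fell by 0.47 (adjusted p = 0.0172), a call that ended without B4_13 or B4_3. Esrra, the nuclear receptor that works with Ppargc1a, fell by 0.38 (adjusted p = 0.0356), and 8 of the 12 choices of a mouse to leave out ended this call (highest adjusted p = 0.0918, without B4_13). Rora, a receptor of the clock, fell by 0.41 (standard error 0.09, adjusted p = 0.00895), and Noct, a rhythmic deadenylase-like protein, fell by 0.73 (adjusted p = 0.0140), a call that ended without B4_3 (adjusted p = 0.0560).

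Around glucose and glycogen the members went both ways. Of 15 genes of glycogen metabolism 1 was higher (6.67%) and 2 were lower (13.3%), with a median difference of -0.0195. Gyg, the primer on which glycogen is built, was between 7.71 and 8.10 in MF, above all CR mice at 7.45, 7.68, 7.24, 7.46 and 7.20, and rose by 0.48 (standard error 0.10, adjusted p = 0.00999). Gys2, the liver glycogen synthase, fell by 0.50 (adjusted p = 0.0469), a call that 7 of the 12 mice could end (highest adjusted p = 0.124, without B4_1). Pck1, which commits carbon to glucose, fell by 0.40 (adjusted p = 0.0182) and its call ended without B4_1 or B4_3. Slc2a8, a transporter of hexoses and trehalose inside cells, varied little within groups. It was at 6.80, 6.63, 6.71, 6.77 and 6.82 in CR and between 6.08 and 6.35 (median 6.24) in MF. The groups did not overlap (log2 difference -0.53, standard error 0.08, adjusted p = 0.00102 from limma, 0.0132 with the well row as a block). Igf1, the growth factor that carries growth hormone action, was at 11.82 ± 0.06 (SD, n = 5) in CR and 11.83 ± 0.14 (n = 7) in MF, a log2 difference of 0.01 (adjusted p = 0.936).

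**Figure D2:**
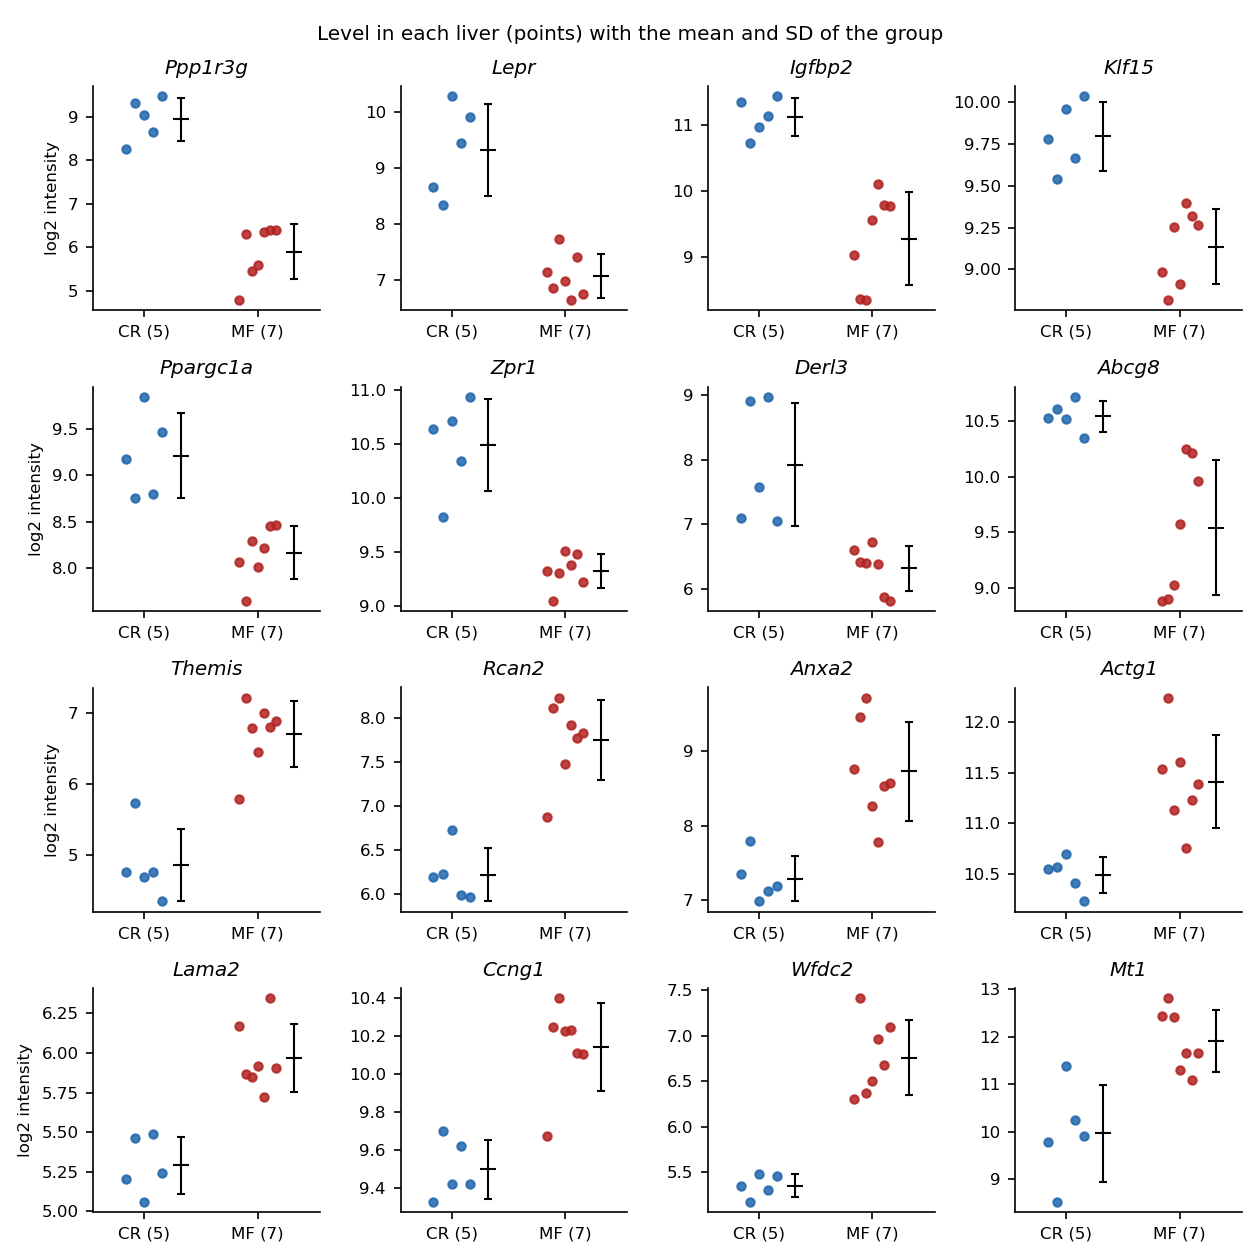
Log2 intensity (vertical axis) of 16 genes in each CR (blue, 5) and MF (red, 7) liver, with the mean and SD of each group in black. The CR and MF livers do not overlap for Ppp1r3g, Lepr or Igfbp2, and for Themis or Rcan2 in the other direction, whereas for Anxa2 and Ccng1 the lowest MF mouse lies within or near the CR range.

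Most mitochondrial genes of 5 lists had small negative differences, and few of them passed the test. Among 23 subunits of respiratory complexes II to IV all 23 differences were negative, 7 were called lower (30.4%, against 2.62% of all genes) and the median was -0.221. Of 34 complex I subunits 32 were negative, 2 were called (5.88%) and the median was -0.196. All 15 ATP synthase subunits were negative, 1 was called (6.67%) and the median was -0.204. Of 24 genes of the citrate cycle and pyruvate dehydrogenase 20 were negative and 2 were called (8.33%), with a median of -0.190. Of 70 mitochondrial ribosomal proteins 58 were negative and 2 were called (2.86%, near the share of all genes), with a median of -0.119. No member of these 5 lists was called higher. Leaving out 1 mouse took the called subunits of complexes II to IV to between 0 (without B4_3) and 9, and those of complex I to between 0 (without B4_1) and 12. The median over complexes II to IV was -0.278, -0.139 and -0.0940 within plates G150, G151 and G152, and that over complex I was -0.253, -0.0570 and -0.0685. Under median centring the lower calls of complex I and of complexes II to IV were 16 and 12, and under the well row block they were 0 and 1, with none for ATP synthase and the citrate cycle.

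Cox5a, a subunit of cytochrome c oxidase, was at 8.91, 8.75, 8.81, 8.94 and 9.08 in CR and between 8.18 and 8.78 (median 8.58) in MF. It fell by 0.37 (standard error 0.09, adjusted p = 0.0176), the highest MF mouse, C4_5, lay above the lowest CR mouse, and the call ended without B4_3 (adjusted p = 0.0618). Atp5b, the catalytic subunit of ATP synthase, lay between 12.57 and 12.64 in the CR livers and between 12.22 and 12.54 in the MF livers. This fall of 0.21 (adjusted p = 0.0398) had no overlap, and it was lost with 9 of the 12 mice left out (highest adjusted p = 0.0831, without C4_1). Cox7a1, a heart and muscle form of an oxidase subunit, had the largest fall of the list, at 0.85 (standard error 0.24, adjusted p = 0.0349). Its call ended for 8 of the 12 mice (highest adjusted p = 0.0930, without B4_1). The other called subunits of complexes II to IV, Cox4i1, Cyc1, Sdhd, Uqcrc1 and Uqcrfs1, fell by 0.28, 0.29, 0.40, 0.31 and 0.32 (adjusted p between 0.0340, for Sdhd, and 0.0451, for Uqcrc1), and between 6 and 9 mice could end each of these calls (highest adjusted p = 0.122, for Uqcrc1 without B4_13). Ndufa8 of complex I fell by 0.30 (adjusted p = 0.0247) and its call ended without B4_1, B4_13 or C4_11. Pdhb of pyruvate dehydrogenase fell by 0.45 (adjusted p = 0.0302), and leaving out any 1 of 5 mice ended the call (highest adjusted p = 0.0809, without B4_13). Ndufb8 of complex I, Idh3a of the citrate cycle, and the mitochondrial ribosomal proteins Mrpl2 and Mrpl38 fell by 0.44, 0.38, 0.32 and 0.52 (adjusted p = 0.0334, 0.0350, 0.0293 and 0.0492), and 7, 7, 6 and 9 mice could end these calls (highest adjusted p = 0.158, for Mrpl38 without B4_3). Slc25a25, a calcium-regulated carrier of ATP and magnesium into mitochondria, fell by 0.76 (standard error 0.16, adjusted p = 0.00999). Coq10b, a binding protein of coenzyme Q, was between 8.42 and 8.80 in CR and between 7.54 and 8.22 in MF and fell by 0.69 (standard error 0.13, adjusted p = 0.00403). These last 2 calls were held.

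Mitochondrial beta-oxidation showed no call. Of 21 genes of mitochondrial beta-oxidation none was called by limma in either direction, and none passed an unadjusted p of 0.01 (median -0.111). Cpt1a, the carnitine transferase that admits fatty acids to mitochondria, was at 12.19 ± 0.07 (SD, n = 5) in CR and 12.19 ± 0.21 (n = 7) in MF. Acadm, a medium-chain dehydrogenase, differed by 0.04 (adjusted p = 0.889). Of 33 genes of peroxisomal oxidation and biogenesis 2 were lower (6.06%), none was higher and the median was -0.122. Phyh, which starts the alpha-oxidation of branched fatty acids, fell by 0.25 with no overlap and Nudt19, a peroxisomal coenzyme A hydrolase, by 0.37 (adjusted p = 0.0296 and 0.0393), and 6 and 8 mice could end these calls (highest adjusted p = 0.0842, without B4_13, and 0.114, without B4_1). Both were named after their values were seen.

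Some genes of lipid synthesis were lower in MF. Mlxipl, the carbohydrate-responsive factor ChREBP, was at 10.80, 11.02, 10.88, 10.81 and 10.83 in CR and between 10.18 and 10.64 (median 10.44) in MF. It fell by 0.45 with no overlap (standard error 0.10, adjusted p = 0.0105) and its call was held. Fasn, the fatty acid synthase, was at 11.32, 12.80, 11.33, 11.85 and 10.88 in CR and between 9.45 and 11.29 (median 10.65) in MF. It fell by 1.11 (standard error 0.30, adjusted p = 0.0284), the groups overlapped, and leaving out B4_13, B4_5, C4_7 or C4_9 ended the call. Within the 3 plates the fall of Fasn was -1.50, -0.56 and -0.11. Elovl6, an elongase, fell by 0.92 and Acaca, the carboxylase that makes malonyl-CoA, by 0.66 (adjusted p = 0.0284 and 0.0368), and 5 and 7 of the 12 mice left out ended these calls (highest adjusted p = 0.0719 and 0.0967, both without B4_5). Scd1, the stearoyl-CoA desaturase, was at 13.55 ± 0.08 (SD, n = 5) and 13.47 ± 0.24 (n = 7), with an adjusted p of 0.656. Of the 23 genes of this list 4 were lower (17.4%, against 2.62% of all genes), none higher, and the median was -0.533. The number was 1 without B4_13, B4_5, C4_7 or C4_9, up to 8 without another mouse, and 0 under the well row block.

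Cholesterol synthesis had the most negative median of the 86 lists examined, -0.745 over 22 genes. Of these 4 were called lower (18.2%, against 2.62% of all genes) and none higher. All 7 MF mice lay below all CR mice for 4, as was so for 1.5% of all genes. Pmvk, phosphomevalonate kinase, was at 8.35, 8.68, 7.83, 8.10 and 7.93 in CR and between 6.12 and 7.52 (median 7.12) in MF, and its fall of 1.22 (standard error 0.29, adjusted p = 0.0172) was held. Insig1, which retains the sterol sensor in the ER, was at 11.03, 11.48, 10.52, 10.99 and 10.63 in CR and between 8.71 and 10.47 (median 10.04) in MF. It fell by 1.02 with no overlap (adjusted p = 0.0333), and 6 of the 12 mice ended the call (highest adjusted p = 0.0760, without B4_1). Lss, lanosterol synthase, fell by 1.11 and Scap, the escort of the sterol-regulated factors, by 0.26 (adjusted p = 0.0488 and 0.0456), calls that 10 and 11 of the 12 mice could end (highest adjusted p = 0.120 and 0.111, both without B4_5). The list median was -1.08 within plate G150, -0.165 in G151 and 0.0520 in G152, so the difference was largest within plate G150 and near 0 within G152. The omission of 1 mouse gave 1 (for 6 of the mice) to 4 lower genes, and the well row block none.

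The sterol exporters Abcg5 and Abcg8, which work as 1 heterodimer and pump cholesterol into bile, fell together. Abcg5 was at 11.34, 11.21, 11.06, 11.09 and 11.07 in CR and between 9.74 and 10.83 (median 10.45) in MF. Abcg8 was at 10.53, 10.61, 10.52, 10.72 and 10.35 in CR and between 8.88 and 10.25 (median 9.57) in MF. Neither overlapped, the falls were 0.76 and 1.00 (standard errors 0.18 and 0.20, adjusted p = 0.0148 and 0.00820 from limma), and both calls were held. With the well row as a block the adjusted p was 0.146 and 0.0791. Within plates G150, G151 and G152 the difference of Abcg8 was -1.23, -0.51 and -0.39. The genes lie head to head, and the 109 bases between their starts (RefSeq, GRCm38.p6, chr17:84683012-84683120, + strand) are given because both starts share them.
Abcg5 and Abcg8: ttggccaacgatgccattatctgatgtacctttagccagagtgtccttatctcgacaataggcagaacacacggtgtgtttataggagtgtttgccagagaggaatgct
Abcc2, the canalicular pump for bilirubin and drug conjugates, was between 11.82 and 11.95 in CR and between 11.21 and 11.77 in MF, and fell by 0.38 (standard error 0.08, adjusted p = 0.00875). Slc10a2, the apical bile acid transporter, went the other way. It was at 7.02, 6.51, 7.50, 6.67 and 6.83 in CR and between 7.63 and 8.88 (median 7.97) in MF, and rose by 1.16 with no overlap (standard error 0.27, adjusted p = 0.0136). Both calls were held. Cyp7a1, the rate-limiting enzyme of bile acid synthesis, was at 10.66 ± 0.61 (SD, n = 5) in CR and 10.87 ± 1.00 (n = 7) in MF, with an adjusted p of 0.821.

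Genes of fat uptake and droplets went both ways in MF. Of 16 genes of fatty acid uptake and binding 2 were higher (12.5%) and 1 lower (6.25%), with a median of 0.0225. Of 27 genes of triglyceride synthesis and droplets 1 was higher (3.7%, near the 2.8% of all genes). In that list 2 were lower (7.41%, against 2.62% of all genes) and the median was -0.0137. Cd36, a fatty acid transporter, was at 10.28, 11.01, 10.49, 10.27 and 9.73 in CR and between 10.87 and 11.49 (median 11.37) in MF, with 1 CR mouse above the lowest MF mouse. It rose by 0.89 (standard error 0.23, adjusted p = 0.0276), and the call ended without B4_1, B4_13 or B4_3. Cidea, a droplet protein of brown and fat-laden cells, was at 4.54, 5.61, 4.05, 4.60 and 3.96 in CR, near the lower limit of 4.32 used for the filter, and between 4.66 and 8.89 (median 7.43) in MF. Since the CR values lay so near this limit no fold is given (adjusted p = 0.0284), and 5 of the 12 mice ended the call (highest adjusted p = 0.0718, without B4_3). Fabp4, a fatty acid binding protein of adipocytes and macrophages, rose by 1.56 (adjusted p = 0.0393), and Aqp7, the glycerol channel, by 1.44 (adjusted p = 0.0450), and 9 mice each could end these calls (highest adjusted p = 0.0910, without B4_1, and 0.117, without B4_3). Of 15 adipocyte markers 4 were higher (26.7%), 2 were lower (13.3%) and the median was 0.189. No marker was higher without B4_13 or without B4_3. Lpin2, a phosphatidate phosphatase of triglyceride synthesis, fell by 0.61 (adjusted p = 0.0182) and its call ended without B4_3. The other lower genes of the 2 lists were Dgat1, an acyltransferase of triglyceride synthesis, and Acsl4, an acyl-CoA synthetase, at -0.34 and -0.58 (adjusted p = 0.0415 and 0.0263), named after their values were seen, and 8 and 4 mice could end these calls (highest adjusted p = 0.104, without B4_3, and 0.0593, without B4_13). Cav1, a caveolar protein, was at 6.09 ± 0.20 (SD, n = 5) and 6.27 ± 0.35 (n = 7), with an adjusted p of 0.564.

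Of 49 genes of the urea cycle and amino acid breakdown 7 were lower in MF (14.3%, against 2.62% of all genes) and none higher. Over the list 42 differences were negative and the median was -0.201. Got1, the cytosolic aspartate aminotransferase, was at 12.32, 12.28, 12.66, 12.39 and 12.84 in CR and between 11.59 and 11.96 (median 11.80) in MF. It fell by 0.72 with no overlap (standard error 0.17, adjusted p = 0.0144), which no longer passed without B4_3 (adjusted p = 0.0553). Tat, tyrosine aminotransferase, fell by 0.46 (adjusted p = 0.0150), also up to the omission of B4_3 (adjusted p = 0.0562). Cps1, the entry enzyme of the urea cycle, fell by 0.29 and Agxt, which clears glyoxylate, by 0.44 (adjusted p = 0.0287 and 0.0314), calls that 6 and 8 mice could end (highest adjusted p = 0.0895 and 0.0830, both without B4_3). Upb1, Ivd and Bckdha, which break down pyrimidines, leucine and branched-chain keto acids, fell by 0.40, 0.46 and 0.32 (adjusted p = 0.0284, 0.0434 and 0.0434), and 6, 9 and 7 mice could end these calls (highest adjusted p = 0.131, for Bckdha without B4_13). The number of called genes of the list was 0 without B4_3 and at most 17 with another mouse left out, and 0 under the well row block. Acmsd, which diverts tryptophan carbon away from NAD synthesis, fell by 1.16 (standard error 0.28, adjusted p = 0.0176) until B4_3 or B4_7 was left out. Slc43a1, a transporter of branched-chain amino acids, fell by 1.11 (standard error 0.20, adjusted p = 0.00315, held). Bhmt, which remethylates homocysteine with betaine, was the exception, at 11.56, 12.03, 12.11, 12.27 and 12.48 in CR and between 12.53 and 12.98 (median 12.85) in MF. It rose by 0.73 with no overlap (standard error 0.12, adjusted p = 0.00189, held), although the difference was 0.91, 0.71 and 0.24 within the 3 plates and its adjusted p was 0.130 with the well row as a block.

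**Figure D3:**
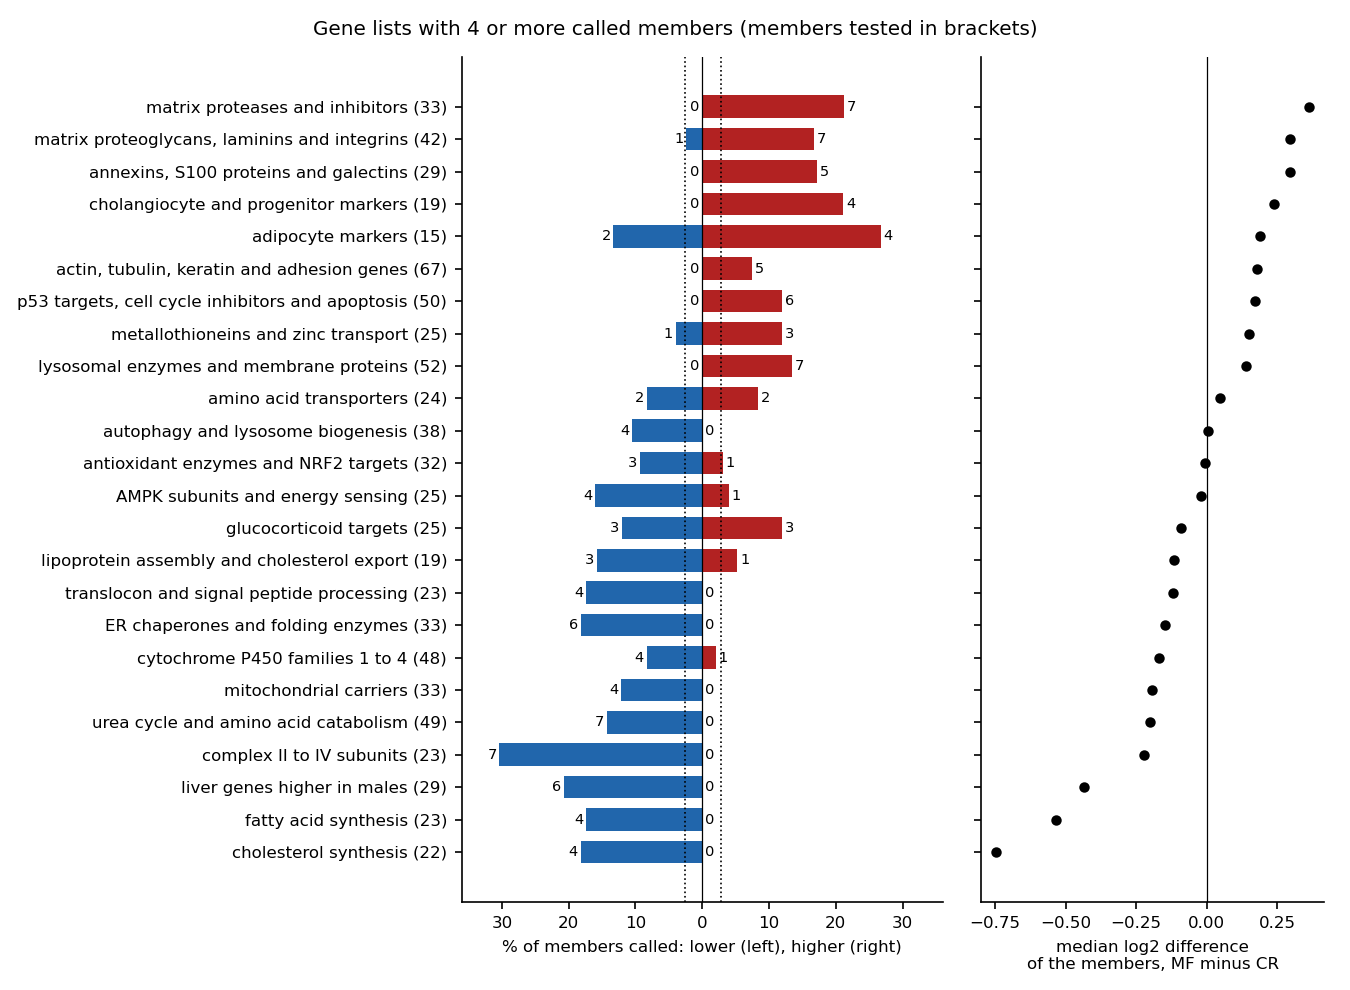
Share of the members of each gene list called higher (red, right) or lower (blue, left) in MF, with the counts at the bar ends and dotted lines at the shares over all genes, 2.8% and 2.62% (left panel), and the median log2 difference of the members (right panel). Lists with 4 or more called members are shown, from cholesterol synthesis at a median of -0.745 upward, and the lists of matrix and lysosomal genes lie on the higher side.

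Of 33 ER chaperones and folding enzymes 6 were lower (18.2%) and none higher, with a median of -0.146. Leaving out 1 mouse gave 2 (without B4_13) to 11 lower genes, and the well row block none. In a separate list, of 24 genes of ER-associated degradation, 2 were lower (8.33%), none was higher and the median was -0.126. Derl3, a channel protein of that list, was at 7.10, 8.91, 7.58, 8.97 and 7.06 in CR and between 5.82 and 6.73 (median 6.40) in MF. It was 3.04-fold lower with no overlap (log2 standard error 0.30, adjusted p = 0.00383 from limma, 0.0466 with the well row as a block). Among the chaperones and folding enzymes, Ero1b, an oxidase for disulfide bonds, was at 8.39, 8.08, 8.15, 8.48 and 8.31 in CR. It was between 7.46 and 8.36 (median 7.66) in MF, where the highest mouse, C4_9, lay within the CR range. It fell by 0.55 (standard error 0.13, adjusted p = 0.0149, held). Fkbp11, a prolyl isomerase of secretory cells, fell by 0.48 with no overlap (standard error 0.11, adjusted p = 0.0124, held). Pdia6, a disulfide isomerase, fell by 0.47, Hyou1, an ER chaperone of the heat shock family, by 0.67, and Dnajc3, a cochaperone, by 0.37 (adjusted p = 0.0280, 0.0284 and 0.0227). The call of Dnajc3 ended without B4_13 or B4_7, and those of Pdia6 and Hyou1 for 4 mice each (highest adjusted p = 0.0833 and 0.0667, both without B4_13). Txndc5, a thioredoxin-domain isomerase, fell by 0.28 (adjusted p = 0.0207, ended without B4_1, B4_13 or B4_3).

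Of the 2 chaperones printed above that were not called, Hsp90b1 differed in the same direction as these lower genes and Hspa5 in the other. Hspa5, the main ER chaperone BiP, had SDs of 0.16 (n = 5) in CR and 0.32 (n = 7) in MF and did not pass the test (log2 difference 0.16, adjusted p = 0.447). Hsp90b1 was at 11.69 ± 0.24 and 11.42 ± 0.19 (log2 difference -0.27, adjusted p = 0.0707). Acnat2, the higher gene with the element, is an acyltransferase of peroxisomes and rose by 1.08 (adjusted p = 0.0284), a call that 6 mice could end (highest adjusted p = 0.0858, without B4_13). Of 23 genes of the translocon and of signal peptide processing 4 were lower (17.4%, against 2.62% of all genes) and none higher (median -0.119). With 1 mouse left out 1 (without B4_3, C4_11 or C4_15) to 4 were lower, and under the well row block 1. Spcs3, a subunit of the signal peptidase, was between 8.88 and 9.16 in CR and between 8.55 and 8.80 in MF, and fell by 0.34 (standard error 0.07, adjusted p = 0.00824, 0.0292 with the well row as a block). Sec61a1, the pore subunit, fell by 0.25 (adjusted p = 0.0340), and 7 mice could end that call (highest adjusted p = 0.0771, without B4_1). Ssr3 and Ssr4, subunits of the translocon-associated complex, fell by 0.31 and 0.22 (adjusted p = 0.0397 and 0.0314), and 8 and 5 mice could end these calls (highest adjusted p = 0.0897, without B4_13, and 0.0969, without B4_3). Serp1, an ER protein that protects unfolded proteins, was chosen after its values were seen, and it fell by 0.33 (standard error 0.07, adjusted p = 0.00875, held). In glycosylation, Rpn2 of the oligosaccharyltransferase fell by 0.20 (adjusted p = 0.0375), and Fut8, which adds core fucose, rose by 0.49 (adjusted p = 0.0284), and 8 and 4 mice could end these calls (highest adjusted p = 0.111, without B4_3, and 0.0845, without B4_1). Rpn1, Uggt1 and Mogs differed by -0.19, -0.29 and -0.24, with adjusted p = 0.165, 0.0546 and 0.200.

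**Figure D4:**
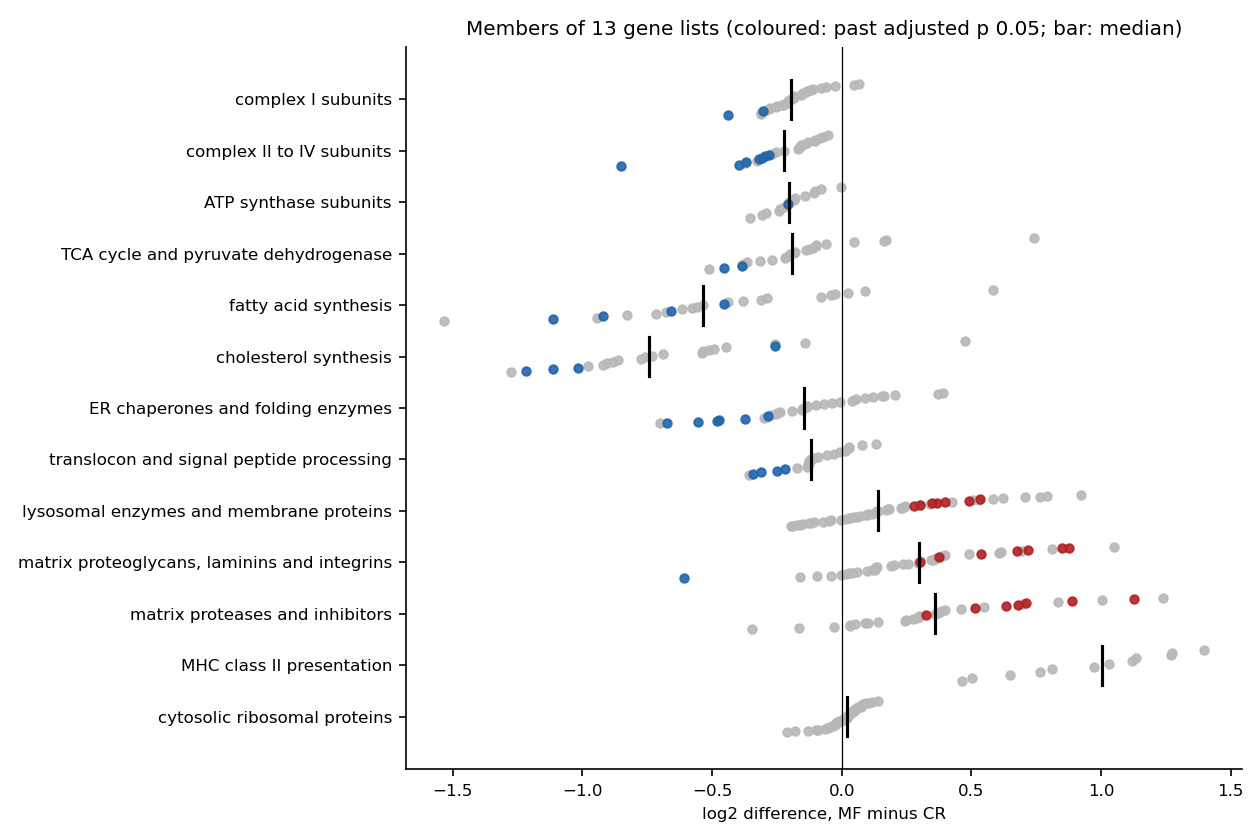
Log2 difference of MF minus CR (horizontal axis) of each member of 13 gene lists (vertical axis), coloured where adjusted p was under 0.05 (red higher, blue lower, grey not called), with the list median as a black bar. Subunits of complexes II to IV and of ATP synthase are all to the left of 0, cytosolic ribosomal proteins lie around 0 (median 0.0221), and all 12 genes of MHC class II presentation lie to the right of it with none called.

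Some genes of the matrix rose. Of 42 proteoglycans, laminins and integrins 7 were higher (16.7%, against 2.8% of all genes) and 1 lower, with a median of 0.297. The omission of 1 mouse gave 2 (without B4_1 or B4_3) to 9 higher genes, and the well row block none. Lama2, a laminin chain of basement membranes, was at 5.21, 5.46, 5.06, 5.49 and 5.24 in CR and between 5.72 and 6.34 (median 5.90) in MF, and rose by 0.68 with no overlap (standard error 0.13, adjusted p = 0.00434, held). Bgn, a small proteoglycan that binds collagen, was between 11.17 and 11.32 in CR and between 11.38 and 11.78 in MF, and rose by 0.38 (standard error 0.09, adjusted p = 0.0154, held). Lum, another collagen-binding proteoglycan, rose by 0.85 with no overlap (adjusted p = 0.0254), a call that ended without B4_1, B4_3 or C4_1. Itga8, an integrin of stellate cells, rose by 0.88 (adjusted p = 0.0180, ended without B4_1 or B4_3). The 1 lower gene was Lama3, a laminin chain of epithelia, at -0.61 (adjusted p = 0.0213, ended without B4_1, B4_13 or B4_3). Dpt, a matrix protein of connective tissue chosen after its values were seen, was at 7.18, 6.92, 7.19, 7.50 and 7.05 in CR and between 7.92 and 9.06 (median 8.26) in MF. It rose by 1.24 with no overlap (standard error 0.24, adjusted p = 0.00541, held).

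Of 33 matrix proteases and their inhibitors 7 were higher (21.2%) and none lower (median 0.362). Leaving out 1 mouse gave 0 (without B4_1) to 7 higher genes, and the well row block none. Timp2, an inhibitor of metalloproteases, and Mmp2, the gelatinase it regulates, rose by 0.68 and 0.89, both with no overlap (adjusted p = 0.0370 and 0.0419), and 7 of the 12 mice could end each call (highest adjusted p = 0.0854, without B4_3, and 0.103, without B4_7). Mmp23, a membrane-bound metalloprotease, rose by 0.52 (adjusted p = 0.0170, ended without B4_1). Without B4_1 no gene of this list was called. Of 27 markers of stellate cells and myofibroblasts 2 were higher (7.41%) and none lower (median 0.265). Cygb, the globin of stellate cells, was at 8.70, 8.42, 8.46, 8.51 and 8.45 in CR and between 8.74 and 9.17 (median 9.11) in MF, and rose by 0.50 (standard error 0.11, adjusted p = 0.0120, held). Pdgfrb, their growth factor receptor, rose by 0.65 with no overlap (adjusted p = 0.0195, ended without B4_1 or B4_3). Of 28 collagen genes 2 were higher (7.14%, against 2.8% of all genes) and 1 lower (3.57%, against 2.62%), with a median of 0.316. No collagen call was held, and the well row block gave none. The fibrillar collagens Col1a1 and Col3a1 differed by 0.54 and 0.44, with adjusted p = 0.130 and 0.142. Tgfb1, the profibrotic cytokine, was at 7.72 ± 0.12 (SD, n = 5) and 8.19 ± 0.39 (n = 7), with adjusted p = 0.196.

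Among 29 annexins, S100 proteins and galectins 5 were higher (17.2%) and none lower (median 0.295). With 1 mouse left out 1 (without B4_3) to 7 were higher, and under the well row block 1. Anxa2, which links membranes to actin, was at 7.35, 7.79, 6.99, 7.12 and 7.19 in CR and between 7.78 and 9.72 (median 8.57) in MF, where the lowest mouse met the highest CR mouse. It was 2.71-fold higher (log2 standard error 0.26, adjusted p = 0.00315, 0.0332 with the well row as a block). Its partner S100a10 rose by 0.70 and S100a11 by 0.85 (adjusted p = 0.0209 and 0.0199), and both calls ended without B4_1 or B4_3. Anxa5, a phosphatidylserine-binding annexin, rose by 0.60 (adjusted p = 0.0140, ended without B4_3), and Lgals1, a galectin, by 1.07 (adjusted p = 0.0295), a call that 6 mice could end (highest adjusted p = 0.0844, without B4_7).

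Actg1, a cytoplasmic actin, was at 10.55, 10.57, 10.69, 10.41 and 10.22 in CR and between 10.76 and 12.24 (median 11.38) in MF. It rose by 0.92 with no overlap (standard error 0.20, adjusted p = 0.00999, 0.0497 with the well row as a block). Of 67 genes of actin, tubulin, keratin and adhesion 5 were higher (7.46%, against 2.8% of all genes) and none lower (median 0.180). Under median centring, however, 2 were higher and 5 lower. Leaving out 1 mouse gave 1 (without B4_13 or B4_3) to 10 higher genes, and the well row block 1. Of 19 markers of bile duct cells 4 were higher (21.1%) and none lower (median 0.240), and under median centring 2 and 3. With 1 mouse left out 1 (without B4_5 or C4_11) to 6 of these were higher, and under the well row block 1. Cd24a, a surface protein of these and of progenitor cells, was between 6.32 and 6.62 in CR and between 7.07 and 9.61 (median 7.86) in MF and rose by 1.49 (standard error 0.33, adjusted p = 0.0110, held). The defining keratin Krt19 differed by 0.13 (adjusted p = 0.627).

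Most immune markers had positive differences, and few passed the test. Genes of MHC class I presentation were an exception, with 13 of 18 negative and a median of -0.0521. Of these 1 was lower (5.56%, against 2.62% of all genes) and none higher. All 12 MHC class II genes had positive differences, with a median of 1.00. For 5 of them all MF mice lay above all CR mice, as was so for 2.29% of all genes. None was called by limma, and 5 passed an unadjusted p of 0.01. H2-Aa, an antigen-presenting chain, was at 8.97, 8.86, 8.54, 9.33 and 8.95 in CR and between 9.44 and 11.41 (median 9.96) in MF (log2 difference 1.40, adjusted p = 0.0574). Cd74, the invariant chain, was between 9.14 and 9.50 in CR and between 9.78 and 11.59 in MF (1.12, adjusted p = 0.114). H2-Ab1 and H2-Eb1, further class II chains, differed by 1.28 and 1.27 with no overlap (adjusted p = 0.0884 and 0.0954). Among the omissions of 1 mouse, the adjusted p of these named genes was highest without C4_11, from 0.116 (H2-Aa) to 0.213 (Cd74).

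Of 31 markers of recruited and lipid-laden macrophages 3 were higher (9.68%), 29 were positive and the median was 0.691. The omission of 1 mouse gave 0 (without B4_1, B4_3, B4_7 or C4_11) to 6 higher genes, and the well row block none. Trem2, a lipid receptor of these cells, was at 5.94, 6.71, 6.39, 6.48 and 6.07 in CR and between 6.78 and 9.00 (median 7.72) in MF, and rose by 1.41 with no overlap (adjusted p = 0.0389). Ccr2, the monocyte receptor for recruitment, rose by 0.98 with no overlap (adjusted p = 0.0370). For both genes 8 of the 12 mice could end the call (highest adjusted p = 0.0975 and 0.106, both without B4_1). Gpnmb, a membrane glycoprotein made by foamy macrophages, rose by 1.57 (adjusted p = 0.0370), a call that 8 mice could end (highest adjusted p = 0.0771, without B4_1). Of 26 resident Kupffer cell markers 1 was higher and 1 lower (3.85% each, near the 2.8% and 2.62% of all genes), with a median of 0.225. Clec4f, which defines those cells, differed by 0.29 (adjusted p = 0.574). C1qb, a complement chain of macrophages, rose by 0.80, and Cd163, the haemoglobin scavenger receptor, fell by 1.96 (adjusted p = 0.0450 and 0.0367), and 9 mice could end each call (highest adjusted p = 0.107, without B4_13, and 0.0920, without B4_7).

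Most lymphocyte markers had positive differences, and few passed the test. Of 37 T and NK cell markers 1, Themis, was called higher (2.7%, against 2.8% of all genes), and 34 were positive (median 0.311). Themis, which tunes T cell receptor signals, was at 4.76, 5.73, 4.69, 4.76 and 4.35 in CR and between 5.79 and 7.22 (median 6.80) in MF, with no overlap (adjusted p = 0.00411 with the well row as a block). Cd3e, which defines T cells, was at 5.89 ± 0.12 (SD, n = 5) and 6.18 ± 0.94 (n = 7), with 8.06 in the MF mouse C4_11 and an adjusted p of 0.673. Without C4_11 its difference was -0.0249. Of 26 B and plasma cell markers 1, Ly6d, was called higher (3.85%, near the 2.8% of all genes), and 25 were positive (median 0.662). Cd79a, which defines B cells, was at 5.42 ± 0.40 in CR and 6.11 ± 1.51 in MF, with 9.51 in C4_11 (adjusted p = 0.446). Stap1, an adaptor of B cells and macrophages, was at 5.85, 6.96, 5.74, 6.28 and 5.99 in CR and between 6.99 and 8.41 (median 7.51) in MF, and was 2.57-fold higher (adjusted p = 0.00315, 0.0497 with the well row as a block). Ly86, a partner of a Toll-like receptor of B cells and macrophages, was between 8.13 and 8.64 in CR and between 9.05 and 10.70 in MF, and was 2.53-fold higher (adjusted p = 0.0147, held). Il1b, the inflammatory cytokine, was at 5.64 ± 0.47 and 6.09 ± 0.48, with adjusted p = 0.422.

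Plasma acute-phase genes had a median of 0.373 over 26 members, with 3 higher (11.5%, against 2.8% of all genes) and none lower. With 1 mouse left out 1 (without B4_1 or B4_3) to 9 were higher, and under the well row block none. Lcn2, an iron-scavenging acute-phase protein, was at 9.65, 9.97, 12.27, 9.98 and 10.01 in CR and between 11.37 and 13.43 (median 12.14) in MF. Only the CR mouse B4_7 reached the MF range, the rise was 2.07 (standard error 0.52, adjusted p = 0.0209), and the call ended without B4_1, B4_13 or B4_3. Orm3, an acute-phase glycoprotein, was at 6.04, 5.72, 8.53, 6.25 and 7.00 in CR and between 7.92 and 10.49 (median 8.97) in MF, again with B4_7 in the MF range, and was 5.45-fold higher (adjusted p = 0.0152, held). Saa2, a serum amyloid, rose by 2.81 (adjusted p = 0.0287), with differences of 3.56, -0.83 and 3.18 within the 3 plates, and 6 mice could end the call (highest adjusted p = 0.0833, without B4_1). The metallothioneins Mt1 and Mt2, which bind zinc and are induced by stress hormones, rose by 1.94 and 1.50 (adjusted p = 0.00554 and 0.0105, held, but 0.0803 and 0.167 under the well row block). The CR mice were spread widely, from 8.52 to 11.38 for Mt1 and from 9.64 to 12.88 for Mt2, with B4_5 lowest for both. Slc39a4, a zinc importer, was between 6.28 and 6.85 in CR and between 7.23 and 8.38 in MF, and rose by 1.24 with no overlap (adjusted p = 0.0314), and 5 mice could end the call (highest adjusted p = 0.0798, without B4_1).

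Of 52 lysosomal genes 7 rose (13.5%), none fell and the median was 0.139. Under median centring 4 were higher and 3 lower, with 1 mouse left out 1 (without B4_3) to 9 were higher, and under the well row block 1. Ctsa, a protective protein and carboxypeptidase, was at 11.29, 11.13, 11.13, 11.20 and 11.18 in CR and between 11.31 and 11.62 (median 11.49) in MF. It rose by 0.28 with no overlap (standard error 0.07, adjusted p = 0.0164), and its adjusted p was 0.0972 under median centring. Hexa, a hexosaminidase subunit, rose by 0.53 and Ppt1, a palmitoyl thioesterase, by 0.35, both with no overlap (adjusted p = 0.0223 and 0.0172). The call of Hexa ended without B4_1, B4_13 or B4_3, and that of Ppt1 without B4_1 or B4_3. Ctsz, a cathepsin, and Man2b2, a mannosidase, rose by 0.30 and 0.40 (adjusted p = 0.0225 and 0.0170), and each call ended without B4_13 or B4_3. In contrast, 4 of 38 genes of autophagy and lysosome biogenesis were lower and none higher (median 0.00525), with 1 (without B4_13) to 4 when 1 mouse was left out and none with the well row as a block. Atg9a, a membrane protein of forming autophagosomes, fell by 0.31 (standard error 0.06, adjusted p = 0.00824, held), and Pink1, the kinase that marks damaged mitochondria, fell by 0.43 (adjusted p = 0.0185) until B4_13 was left out.

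Of 50 p53 targets, cell cycle inhibitors and apoptosis genes 6 were higher and none lower (median 0.172), while under median centring 4 were higher and 4 lower. Leaving out 1 mouse gave 1 (without B4_1, B4_3, C4_11 or C4_7) to 9 higher genes, and the well row block 1. Ccng1, a p53 target of the cyclin family, was at 9.33, 9.70, 9.42, 9.62 and 9.42 in CR and between 9.67 and 10.40 (median 10.23) in MF. The lowest MF mouse, C4_1, lay just under the highest CR mouse, and the rise of 0.64 (standard error 0.11, adjusted p = 0.00144) was held and had an adjusted p of 0.0391 with the well row as a block. Apaf1, the apoptosome scaffold, and Casp12 and Casp4, inflammatory caspases, rose by 0.61, 0.72 and 0.87 with no overlap (adjusted p = 0.0369, 0.0404 and 0.0493), and 9, 8 and 10 of the 12 mice could end these calls (highest adjusted p = 0.0757, without B4_13, and 0.103 and 0.104, without B4_1 and B4_3). Fas, a death receptor, rose by 0.48 with no overlap (adjusted p = 0.0479), and 10 mice could end the call (highest adjusted p = 0.154, without B4_1). Cdkn1a, the cell cycle inhibitor p21, was at 6.53, 7.79, 8.99, 7.54 and 9.60 in CR and between 8.50 and 11.32 (median 9.70) in MF, with an adjusted p of 0.0876. Mdm2, another p53 target, differed by 0.06 (adjusted p = 0.748).

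Liver genes that differ between the sexes were examined next. Of 29 genes known to be higher in male liver 6 were lower in MF (20.7%) and none higher (median -0.434), and the median was -0.107, -0.927 and -0.726 within plates G150, G151 and G152. With 1 mouse left out 1 (without B4_1, B4_13 or B4_3) to 8 were lower, and under the well row block 3. Hsd3b5, a male-specific steroid dehydrogenase, was at 8.75, 5.28, 3.92, 10.22 and 9.97 in CR and between 3.21 and 5.23 (median 4.05) in MF. The CR mice fell into high and low values, with B4_7 within the MF range and B4_5 just above it, and since most MF values lay near the lower limit of 4.32, no fold is given (adjusted p = 0.0214, ended without B4_1, B4_13 or B4_3). Susd4, a complement regulator, was at 9.11, 8.82, 8.07, 9.59 and 9.39 in CR and between 6.27 and 8.19 (median 7.24) in MF, and fell by 1.72 (standard error 0.36, adjusted p = 0.00848, 0.0244 with the well row as a block). Of 25 genes higher in female liver 2 were higher (8.0%) and none lower (median 0.253). Within the 3 plates the median was -0.0750, 1.22 and 0.374, so that its direction turned on G150. Cyp17a1, a steroid hydroxylase, was at 10.18, 10.86, 11.83, 10.92 and 10.44 in CR and between 12.003 and 12.723 (median 12.137) in MF, and was 2.80-fold higher with no overlap (log2 standard error 0.31, adjusted p = 0.00875, held). Stat5a, a transducer of growth hormone signals, rose by 0.51 with no overlap (standard error 0.12, adjusted p = 0.0131, held), and the difference was 0.64, 0.14 and 0.31 within the 3 plates.

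Several of the largest held differences belonged to none of these groups. Rcan2, a regulator of the phosphatase calcineurin, was at 6.20, 6.23, 6.73, 5.99 and 5.97 in CR and between 6.88 and 8.23 (median 7.83) in MF (adjusted p = 0.00211 with the well row as a block). Wfdc2, a protease inhibitor of epithelia, was at 5.34, 5.17, 5.49, 5.30 and 5.45 in CR and between 6.30 and 7.41 (median 6.68) in MF, and was 2.65-fold higher (log2 standard error 0.22, adjusted p = 0.000892, 0.0255 with the well row as a block). Gas6, a ligand of receptors for dying cells that was chosen after its values were seen, was at 9.19, 9.30, 9.14, 8.62 and 8.62 in CR and between 9.56 and 10.85 (median 10.08) in MF. It rose by 1.14 with no overlap (standard error 0.24, adjusted p = 0.00848, 0.0192 with the well row as a block). Kcne3, a potassium channel subunit, and St8sia3, a sialyltransferase, were low in CR (4.91 to 5.35 and 4.40 to 4.63) and higher by 1.45 and 1.42 in MF (adjusted p = 0.0152 and 0.0165, held). The CR values of St8sia3 lay near the lower limit of 4.32 used for the filter, so the size of its rise is uncertain. Gpx3, the plasma glutathione peroxidase, was between 7.53 and 8.38 in CR and between 8.31 and 10.82 in MF, and was 2.90-fold higher (adjusted p = 0.0110, held). Leap2, a liver peptide that blocks the ghrelin receptor, was between 5.32 and 6.00 in CR and between 6.21 and 7.52 in MF, and rose by 0.95 (standard error 0.21, adjusted p = 0.0110, held).

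Among the falls, some genes were high in only part of the CR mice. Cabyr, a calcium-binding protein best known from sperm, was at 8.57, 5.09, 5.81, 7.76 and 8.80 in CR and between 4.64 and 5.33 in MF, so that B4_5 lay in the MF range. Sftpa1, a surfactant protein, was at 7.74, 5.86, 7.12, 7.53 and 8.80 in CR and between 5.28 and 6.09 in MF, again with B4_5 lowest. Bud13, a splicing factor, was at 8.25, 6.61, 8.49, 7.54 and 9.39 in CR and between 6.38 and 6.71 in MF, with B4_5 in the MF range. These genes fell by 2.21, 1.66 and 1.50 (adjusted p = 0.00383, 0.00209 and 0.00192, held). The MF range of Cabyr began near the lower limit of 4.32 used for the filter, so the size of its fall is uncertain. Gpx6, a glutathione peroxidase of the olfactory system, was at 8.51, 9.35, 7.51, 9.35 and 9.10 in CR and between 4.56 and 8.21 (median 7.02) in MF, and fell by 2.36 (adjusted p = 0.00999, 0.0479 with the well row as a block). Rps23rg1 was 2.19-fold lower (adjusted p = 0.0142, held). Adgrf1, an adhesion receptor, was 3.19-fold lower with no overlap (adjusted p = 0.00440), and Rdh9, a retinol dehydrogenase, and Ceacam2, an adhesion molecule, were 2.24-fold and 2.23-fold lower (adjusted p = 0.0125 and 0.0116, held). The transcription factor Hif1a was at 9.71 ± 0.20 (SD, n = 5) and 9.65 ± 0.14 (n = 7), and Ahr, the dioxin receptor, at 9.50 ± 0.34 and 9.67 ± 0.21, with adjusted p = 0.762 and 0.647.

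Some called genes stood next to each other on the chromosome. By the order of genes on GRCm38.p6, 36 runs of 2 or 3 neighbouring tested genes were called in 1 direction, 18 higher and 18 lower, with 77 genes in all. The next tested gene was called the same way for 4.60% of higher genes and 6.28% of lower genes, against 2.8% and 2.62% of all genes. Of the 26 called pairs with both promoters in the table, 6 were head to head with starts within 1000 bases (23.1%), against 499 of all 9420 neighbouring pairs (5.3%). Overlapping or shared probes were not examined. The 5 longest runs had 3 genes. Zpr1, a zinc finger protein, lay between Apoa5, an activator of lipoprotein lipase, and Bud13. It was at 10.64, 9.82, 10.71, 10.34 and 10.93 in CR and between 9.05 and 9.51 (median 9.33) in MF, and fell by 1.16 with no overlap (standard error 0.15, adjusted p = 0.000225, 0.00211 with the well row as a block). Apoa5 fell by 0.38 (adjusted p = 0.0454), while Apoa4, on its other side, rose by 0.49 (adjusted p = 0.0446), and 9 and 8 mice could end these calls (highest adjusted p = 0.114 and 0.119, both without B4_3).

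Another run joined Lama3, Ttc39c and Cabyr. Ttc39c was at 11.47, 11.04, 10.45, 11.56 and 11.40 in CR and between 9.73 and 10.66 (median 10.41) in MF, and fell by 0.99 (standard error 0.18, adjusted p = 0.00297, 0.00549 with the well row as a block). The next held Ppp1r3g with Lyrm4 and Fars2, which serve mitochondria and are head to head, with falls of 0.34 and 0.27 (adjusted p = 0.0332 and 0.0456). A further run held Abcg5, Abcg8 and Lrpprc, a mitochondrial RNA-binding protein that fell by 0.28 (adjusted p = 0.0280). The calls of Lyrm4, Fars2 and Lrpprc could be ended by 6, 9 and 5 of the 12 mice (highest adjusted p = 0.110, without B4_13, 0.127, without B4_1, and 0.0889, without B4_13). The last was Them4, a thioesterase, Lingo4, a membrane protein, and Tdrkh, a tudor protein, with falls of 0.61, 0.90 and 0.50 (adjusted p = 0.00911, 0.0147 and 0.0398). The call of Them4 was held, that of Lingo4 ended without B4_1 or B4_3, and 8 mice could end that of Tdrkh (highest adjusted p = 0.108, without B4_13). Among higher genes, the pairs included Mt2 with Mt1, Casp4 with Casp12, S100a11 with S100a10, and Tceal8 with Tceal9, which rose by 0.95 and 0.85 (adjusted p = 0.00963 and 0.00999).

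**Figure D5:**
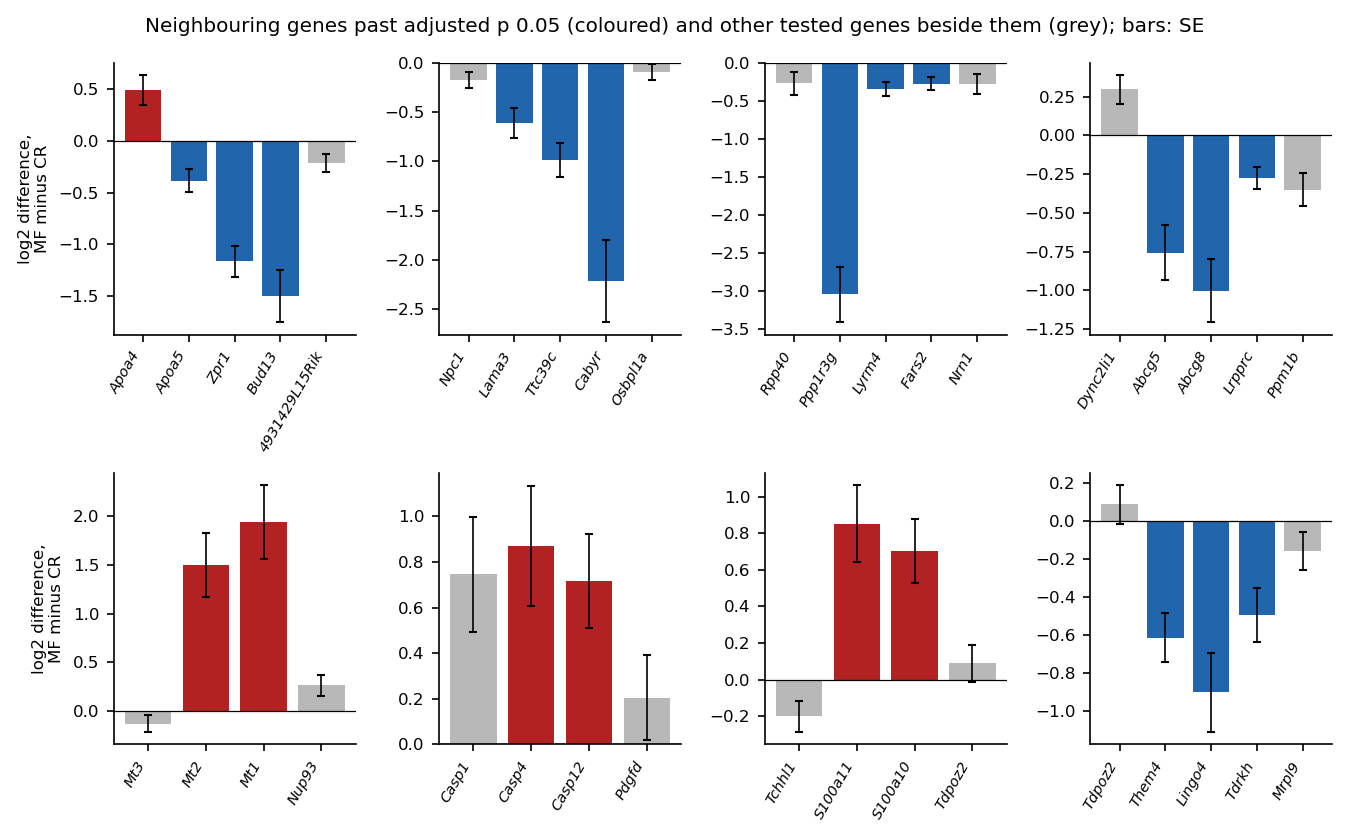
Bars of the log2 difference of MF minus CR with its standard error (vertical axis) for 8 runs of neighbouring genes in their order on the chromosome (horizontal axis), coloured where adjusted p was under 0.05 (red higher, blue lower) and grey otherwise. Apoa4 is higher beside 3 lower genes, and the differences of Lyrm4 and Fars2 are small beside that of Ppp1r3g.

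The array also carries probes for miRNA precursor loci, which measure the transcript of the locus and not the mature miRNA. Of 133 such loci tested none was higher and 2 were lower, against 2.8% and 2.62% of all genes. At an unadjusted p of 0.01 from limma none was higher and 7 were lower, against 766 higher and 700 lower of the 13993 genes tested. The lower counts were thus near or under the shares over all genes. The median difference of the loci was -0.116. Mir23b was at 7.20, 7.11, 7.03, 7.07 and 7.00 in CR and between 6.37 and 6.77 (median 6.47) in MF, and fell by 0.54 with no overlap (standard error 0.11, adjusted p = 0.00824, held). Its neighbours Mir27b and Mir24-1, whose arms are printed above, differed by -0.65 and -0.57 (adjusted p = 0.134 and 0.0846). The paralogous cluster, on another chromosome, holds Mir23a, Mir27a and Mir24-2, which differed by -0.12, 0.13 and 0.00 (adjusted p = 0.699, 0.581 and 0.988). Mir24-1 and Mir24-2 give the same miR-24-3p. Mir181b-2 fell by 0.48 (adjusted p = 0.0368), and 6 mice could end the call (highest adjusted p = 0.116, without B4_1), while its neighbour Mir181a-2, whose 5p arm has the same seed, differed by 0.06 (adjusted p = 0.857).

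Of 48 cytosolic ribosomal proteins none was called by limma, none passed an unadjusted p of 0.01, and the median was 0.0221. Of 41 genes of WNT ligands, receptors and pericentral targets none was called (median -0.0756). The liver label was checked against hepatocyte markers. Apoh, a plasma glycoprotein gene, was at a mean of 12.77 in CR and 12.65 in MF, and Arg1, the arginase of the urea cycle, at 11.88 and 11.74. Of 24 hepatocyte core genes 2, Tat and Cps1, were lower (8.33%, against 2.62% of all genes), none was higher and the median was -0.0265. Of 16 tested markers of other tissues that a liver piece can hold none was called (median 0.0229). In all, 209 of the 758 called genes belonged to at least 1 of the 86 lists and 549 to none.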

How the data were processed

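RNA of 1 frozen liver piece per mouse was hybridised to 1 array. The authors deposited log2 intensities for 35556 transcript clusters, summarised and normalized together by RMA (version and genome build not given in the sources used here). Clusters with 1 gene symbol (21218) were kept, 1881 with several and 12457 with none were not used, and the cluster with the highest mean stood for a gene (18820 genes, of which 18790 matched RefSeq). Genes above an intensity of 20 on at least 5 arrays with an interquartile range over 0.1 were tested (13993). limma 3.58.1 in R 4.3.3 fitted 4 diet groups over 27 arrays with a trend in the variance (23 residual degrees of freedom), with Benjamini-Hochberg adjustment over all genes tested. The fit was tested on simulated data. All adjusted p-values here come from limma, and each mouse is 1 replicate. The number of mice limits the precision. Plate and well row were inferred from array names. Members and lists were chosen with earlier results of these data known. Named genes were the 15 largest held rises and falls, up to 6 called and 4 further members of a list, and genes the study names, while neighbours and genes said to be chosen later were added. Alternatives were other normalizations, filters, variance settings, array weights, blocks for plate, well row and animal number, CR and MF arrays alone, means over clusters, and each mouse left out. Replicate numbers are animal numbers of separate mice and were not taken to pair CR with MF mice.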

Additional observations from a re-analysis of the deposited data

Results flagged for a closer look

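Of 380 pairs of a named gene and a diet group, 20 held 1 mouse far from the rest of its group by Dixon's ratio, and chance alone gives about 1 in 20. The MF mouse C4_9 had 5 of them, with Insig1 at 8.71 and Scd1 at 12.94 as the lowest values and Ero1b at 8.36, Hyou1 at 9.8 and Uggt1 at 9.73 as the highest. The CR mouse B4_5 had 3, with Apoa5 at 11.43, Aqp7 at 5.97 and Fkbp11 at 6.02, and the MF mouse C4_7 had 3, with Cyp7a1 at 8.64, Leap2 at 7.52 and Stat5a at 8.66. In the CR mouse B4_7 Acnat2 was at 9.997 and Lcn2 at 12.27, and in the MF mouse C4_1 Ccng1 was at 9.67 and Acadm at 11.35. Single values stood apart in the CR mice B4_1 (Fas at 7.41) and B4_13 (Kcne3 at 4.91) and in the MF mice C4_11 (Cd79a at 9.51), C4_15 (Cd163 at 6.3) and C4_5 (Mogs at 7.16). What set these values apart was not tested.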

How the results depend on the processing

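The main comparison called 2.8% of the genes tested as higher (392) and 2.62% as lower (366) in MF. These counts moved by over 1.5 times under median centring (1.86% higher, 260, and 11.1% lower, 1554), on plate G150 by itself (0.279%, 39, and 0.2%, 28) and when the well row was blocked (0.3%, 42, and 0.686%, 96), and with CR and MF arrays alone 1.33% (186) were lower. Leaving out 1 mouse gave 0.936% to 4.32% higher (131 to 605) and 0.9% to 4.07% lower genes (126 to 569). The number of genes with all MF mice above all CR mice was 132 under median centring, 721 on plate G150 by itself and 354 to 552 over the 12 omissions of a mouse, and of those with all below 670, 630 and 228 to 408. Leaving mice out cannot end a separation of the groups. The counts on plate G150 by itself and over the omissions therefore could not lie below the 320 and 210 of all mice. What else moved these counts was not tested. With the animal number as a replicate block 294 genes were called, 143 of them lower (1.02% of the genes tested) and the rest higher (1.08%). Same-numbered CR and MF mice are separate animals and were not taken as pairs. They correlated at 0.156, 0.033, 0.122 and 0.210, and numbers 1 and 13 matched best with their own. So few values cannot show whether the numbers carry something shared, which was not tested. Under the replicate block Ahr turned to -0.025, Cd3e to -0.0424, Cpt1a to 0.0049 and Mir181a-2 to -0.0045. Other uncalled genes near 0 turned too. Under median centring Acadm was at -0.0869, Igf1 at -0.1133, Mdm2 at -0.0674, Mir181a-2 at -0.0697 and Mir24-2 at -0.1215. With the well row as a block Acadm was at -0.0497, Mir181a-2 at -0.3013 and Mir23a at 0.2616. Cpt1a was at 0.0156 after quantile normalization, 0.0188 with array weights and 0.012 with the plate as a block, Igf1 at -0.0095 with array weights, and Mir24-2 at -0.0761 after quantile normalization and -0.0341 within plate G150. With 1 mouse left out Acadm ranged from -0.0123 to 0.1317, Cd3e from -0.0249 to 0.4313, Cpt1a from -0.0446 to 0.0392, Hif1a from -0.109 to 0.0223, Igf1 from -0.0239 to 0.0388, Mdm2 from -0.0024 to 0.1314, Mir181a-2 from -0.0724 to 0.1752, Mir24-2 from -0.0504 to 0.0564 and Scd1 from -0.1046 to 0.0106. No called gene named in the text changed sign under any alternative run. Of the 190 named genes 35 were not called and had no call to lose. Of the others, 137 lost their call on plate G150 by itself, 118 when the well row was blocked, 83 with the replicate block, 60 with CR and MF arrays alone, 22 without the filter, 15 with the plate as a block, 14 after quantile normalization, 9 with array weights, 7 without the variance trend, 6 with means over clusters, and 4 each under median centring and with robust variances.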
